A study of Homo sapiens with 10 samples.

Results

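The chromatin positions of 2 related corepressors, RCOR1 and RCOR3, were compared in Kelly neuroblastoma cells by the regions in which each was called. The peak lists of both RCOR1 and both RCOR3 libraries were merged on chromosomes 1 to 22 and X wherever peaks shared at least 1 bp, which gave 65048 regions. Of these, 3118 held a peak of both RCOR1 libraries and of no RCOR3 library (RCOR1-only), 75 held a peak of both RCOR3 libraries and of no RCOR1 library (RCOR3-only), and 5991 held a peak of all 4 libraries (all-four). The 9184 regions of these classes are described here, and the other 55864 regions, with mixed patterns, are counted only. RCOR1 and RCOR3 were immunoprecipitated with an antibody of their own from untreated Kelly cells at 48 h, 2 libraries each. The other 6 libraries, also in pairs, gave readouts that did not enter the classes. Induced FLAG-RCOR2 came from Kelly cells with tagged RCOR2 given 2 µg/mL doxycycline for 48 h, and uninduced FLAG from the same cells without doxycycline. Uninduced peaks may come from antibody background or from tagged RCOR2 made without doxycycline, which cannot be told apart here. LSD1 came from an untreated Kelly derivative whose label names an shRNA against RUNX1T1, so LSD1 was not measured in the same cells as RCOR1 and RCOR3. All groups are 1 cell line, called adrenergic and MYCN-amplified in the labels. Peak lists hold no expression values, so that identity could not be checked by marker expression.

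RCOR1, RCOR2 and RCOR3 are the CoREST scaffold proteins, which hold the histone demethylase LSD1 (gene KDM1A) and the histone deacetylases HDAC1 and HDAC2 in one complex. CoREST is known for silencing neuronal genes with the repressor REST, and for acting with SNAG-domain factors such as GFI1 and SNAI1, whose tail binds LSD1. RCOR3 has been described in blood cells as a weaker partner of LSD1 that can oppose RCOR1. Adrenergic neuroblastoma cells are held in a sympathetic neuron-like state by transcription factors such as HAND2 and GATA3.

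Promoters with a summit of every library of their class show what the classes look like at gene starts. They are printed 5′ to 3′ from RefSeq (GRCh38.p14), from 250 bases before to 50 after the start of transcription, and capitals mark matches to any of the 15 short motifs that were searched on both strands. Both RCOR1-only examples belong to the 2 strongest RCOR1-only regions at gene ends, SMARCE1 (chr17:40647769-40648068, minus strand), a subunit of the SWI/SNF chromatin remodeller, and ATG13 (chr11:46617303-46617602, plus strand), an autophagy initiation factor.
SMARCE1: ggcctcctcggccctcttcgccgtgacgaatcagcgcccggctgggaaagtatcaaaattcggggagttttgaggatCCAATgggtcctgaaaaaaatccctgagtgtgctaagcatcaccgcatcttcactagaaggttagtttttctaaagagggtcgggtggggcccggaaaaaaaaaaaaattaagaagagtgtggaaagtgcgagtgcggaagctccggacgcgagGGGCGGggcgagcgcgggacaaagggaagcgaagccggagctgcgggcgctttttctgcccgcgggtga
ATG13: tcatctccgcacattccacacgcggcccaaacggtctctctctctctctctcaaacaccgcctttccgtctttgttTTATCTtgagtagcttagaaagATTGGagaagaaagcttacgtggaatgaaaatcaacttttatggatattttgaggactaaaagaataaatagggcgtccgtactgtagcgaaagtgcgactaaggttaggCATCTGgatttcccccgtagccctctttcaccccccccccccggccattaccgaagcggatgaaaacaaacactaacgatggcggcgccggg
The RCOR3-only example is GOLGA6A (chr15:74082501-74082800, minus strand), a member of a golgin family with closely similar copies, between which the assignment of reads is uncertain.
GOLGA6A: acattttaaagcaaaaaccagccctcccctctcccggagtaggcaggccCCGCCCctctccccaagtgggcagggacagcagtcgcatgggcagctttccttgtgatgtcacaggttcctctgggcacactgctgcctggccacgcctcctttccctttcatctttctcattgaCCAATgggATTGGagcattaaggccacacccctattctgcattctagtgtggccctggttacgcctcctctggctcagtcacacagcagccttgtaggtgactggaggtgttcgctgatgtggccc
The all-four examples are HES1 (chr3:194135898-194136197, plus strand), a repressor in Notch signalling, and DBH (chr9:133636113-133636412, plus strand), the enzyme that makes noradrenaline from dopamine.
HES1: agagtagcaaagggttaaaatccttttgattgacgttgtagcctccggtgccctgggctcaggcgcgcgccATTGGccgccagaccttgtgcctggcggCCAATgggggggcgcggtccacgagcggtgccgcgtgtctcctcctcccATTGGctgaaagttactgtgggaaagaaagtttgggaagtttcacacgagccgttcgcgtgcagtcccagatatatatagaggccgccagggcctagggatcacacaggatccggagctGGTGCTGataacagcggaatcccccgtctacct
DBH: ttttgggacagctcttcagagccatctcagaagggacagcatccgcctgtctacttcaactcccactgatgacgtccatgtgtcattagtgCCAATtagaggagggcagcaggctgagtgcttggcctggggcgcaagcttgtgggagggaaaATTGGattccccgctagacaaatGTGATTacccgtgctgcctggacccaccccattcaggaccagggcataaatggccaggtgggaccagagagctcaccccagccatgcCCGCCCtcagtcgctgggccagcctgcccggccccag
SMARCE1 held 1 CCAAT box and 1 GC box (GGGCGG), and its RCOR1 summits lay at −146 and −203 bases from the start in replicates 1 and 2. DBH held 2 CCAAT boxes, 1 GC box and 1 match to the GFI1 core (AATCAC), and its RCOR1 summits lay at −156 and −208 bases from the start and its RCOR3 summits at −236 and −180. The HES1 window held 21 CpG dinucleotides and the DBH window 8.

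The 4 lists differed in length and content before any class was formed. RCOR1 had 49250 and 18297 peaks in replicates 1 and 2, and RCOR3 had 13644 and 27786. Median peak length was 352 bp in RCOR1 replicate 1, against 185 bp in RCOR1 replicate 2 and 204 and 169 bp in the RCOR3 libraries. RCOR3 replicate 1 resembled RCOR1 replicate 1 more than its own partner: 95.9% of its peaks overlapped a peak of RCOR1 replicate 1 and 54.5% one of RCOR3 replicate 2. Of the RCOR3 replicate 2 peaks, 48.7% overlapped RCOR1 replicate 1 and 26.5% RCOR3 replicate 1. The regions held by 1 library alone numbered 29538 for RCOR1 replicate 1 and 12812 for RCOR3 replicate 2. Of the regions of RCOR3 replicate 2 alone, 5.59% lay at gene ends, 0.788% held LSD1 peaks of both libraries and 21.1% held an uninduced FLAG peak. Read depth is unknown, so list length could not be set against it, and results that rest on a single library are given with and without it.

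Regions called in both RCOR3 libraries nearly always held an RCOR1 peak, while regions called in both RCOR1 libraries were often free of RCOR3. Of the 7353 regions with peaks of both RCOR3 libraries, 98.98% held at least 1 RCOR1 peak (Wilson 95% interval 98.7 to 99.2%, counting error only), 81.5% held both and 1.02% held none. By library, 97.1% of them held RCOR1 replicate 1 and 83.4% held RCOR1 replicate 2. In the other direction, of the 13485 regions with peaks of both RCOR1 libraries, 44.4% held both RCOR3 libraries, 59.3% held RCOR3 replicate 1, 61.97% held RCOR3 replicate 2 and 23.1% held neither. Since RCOR1 replicate 1 is by far the longest list, the asymmetry was examined with equal numbers of peaks. With the 13644 top peaks of each library by the authors' −log10 q-value, the classes held 1020 RCOR1-only, 212 RCOR3-only and 3556 all-four regions. RCOR1-only regions still outnumbered RCOR3-only regions, but by a smaller margin, and with 50% reciprocal overlap of peaks they numbered 1091 and 994. Leaving out RCOR3 replicate 1 turned the order, with 5128 RCOR1-only and 12888 RCOR3-only regions. Without RCOR1 replicate 1 they numbered 5954 and 1331, without RCOR1 replicate 2 they numbered 32813 and 214, and without RCOR3 replicate 2 they numbered 5504 and 393. With a library left out, its protein is called by its other library only, a looser rule. The count of all-four regions ranged from 5912 to 8353 with single libraries left out. It was 3556 with equal numbers of top peaks and 1600 with 50% reciprocal overlap.

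**Figure D1:**
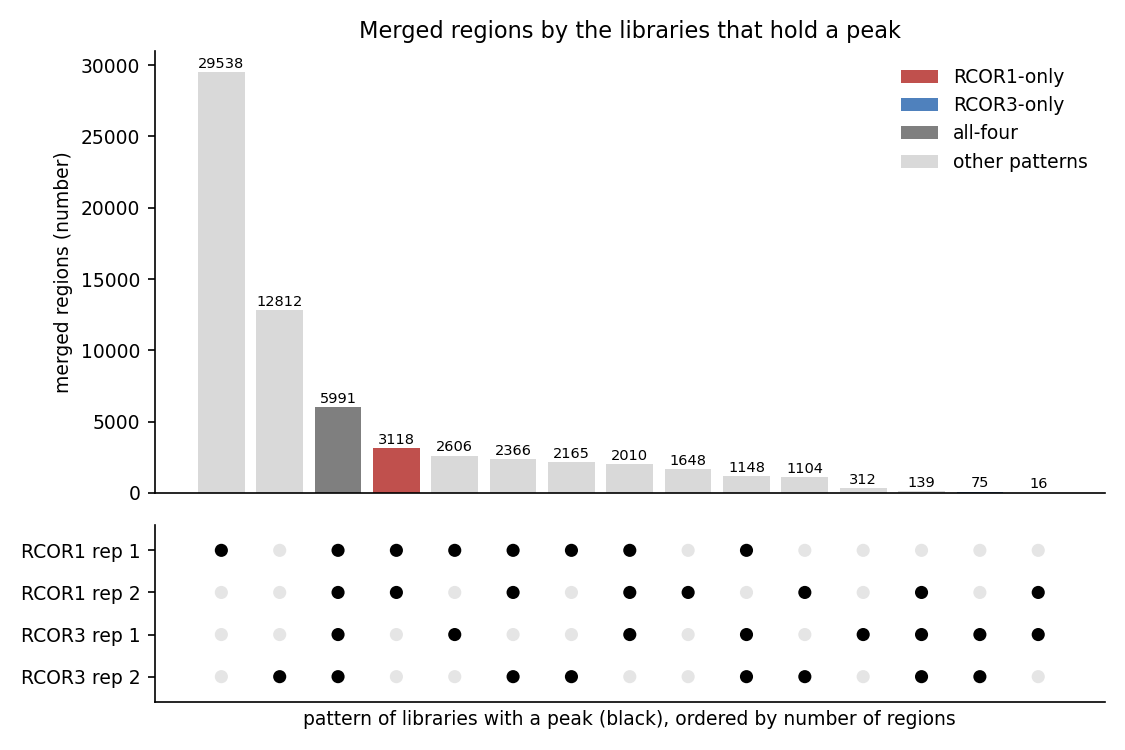
Number of merged regions (vertical axis) for each of the 15 patterns of libraries with a peak, marked by black dots below. All-four regions (5991) were the third most frequent pattern and RCOR1-only regions (3118) the fourth, and the 75 RCOR3-only regions are barely visible at this scale.

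RCOR1-only regions lay at gene ends more often than RCOR3-only or all-four regions. A gene end is here the stretch within 2 kb of either end of one of 19970 protein-coding genes. The share at gene ends was 54.4% of RCOR1-only regions (52.7 to 56.2%), 6.67% of RCOR3-only regions (5 of 75, 2.88 to 14.7%) and 29.7% of all-four regions (28.5 to 30.8%). RCOR1-only exceeded RCOR3-only by 47.8 points (Newcombe 95% interval 39.6 to 51.9) and all-four by 24.8 points (22.7 to 26.8), intervals of counting error only, since regions are not replicates. Of the rest, 25.2% of RCOR1-only, 17.3% of RCOR3-only and 32.7% of all-four regions lay inside protein-coding genes away from their ends. Regions outside protein-coding genes and over 2 kb from an end of any listed gene made up 14.6%, 64.0% and 29.5% in that order. Median distance to the nearest protein-coding gene end was 1.09 kb for RCOR1-only, 254 kb for RCOR3-only and 18.3 kb for all-four regions. Without RCOR1 replicate 2, the RCOR1-only class asks for a peak of RCOR1 replicate 1 only and holds 32813 regions. Its excess over all-four regions was 1.98 points, against 16.3 to 27.6 points without any other library. Of the 29538 regions held by RCOR1 replicate 1 alone, 28.3% lay at gene ends, and of the 1648 of RCOR1 replicate 2 alone, 52.4% did. Regions with both RCOR1 libraries and RCOR3 replicate 1 only or replicate 2 only had 46.2% and 48.0%. A high share was thus not confined to regions without RCOR3. RCOR1 replicate 2 without RCOR1 replicate 1 had 18.4% of 1104 regions with RCOR3 replicate 2 only. It had 0% of 16 with RCOR3 replicate 1 only and of 139 with both RCOR3 libraries.

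Counted over whole lists, without classes, the direction was the same but the libraries were too few for a call. Peaks at gene ends made up 31.9% and 40.01% in the RCOR1 libraries, against 29.99% and 18.9% in the RCOR3 libraries. Means were 35.97% ± 5.71 for RCOR1 and 24.4% ± 7.85 for RCOR3 (SD, n = 2 each), a difference of 11.5 points (exact two-sided permutation p = 0.333, the smallest that 2 against 2 libraries can give). With the replicate block, pairing libraries by number, it was the same 11.5 points (exact p = 0.5, the smallest possible). With equal numbers of top peaks the RCOR1 libraries had 33.3% and 38.2% and the RCOR3 libraries 29.99% and 15.7%, and the ranges of the proteins did not overlap in either setting. Within 500 bp of a gene end they did overlap, with 21.9% and 31.7% in the RCOR1 libraries and 23.1% and 14.2% in the RCOR3 libraries, a difference of 8.14 points (exact permutation p = 0.667).

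**Figure D2:**
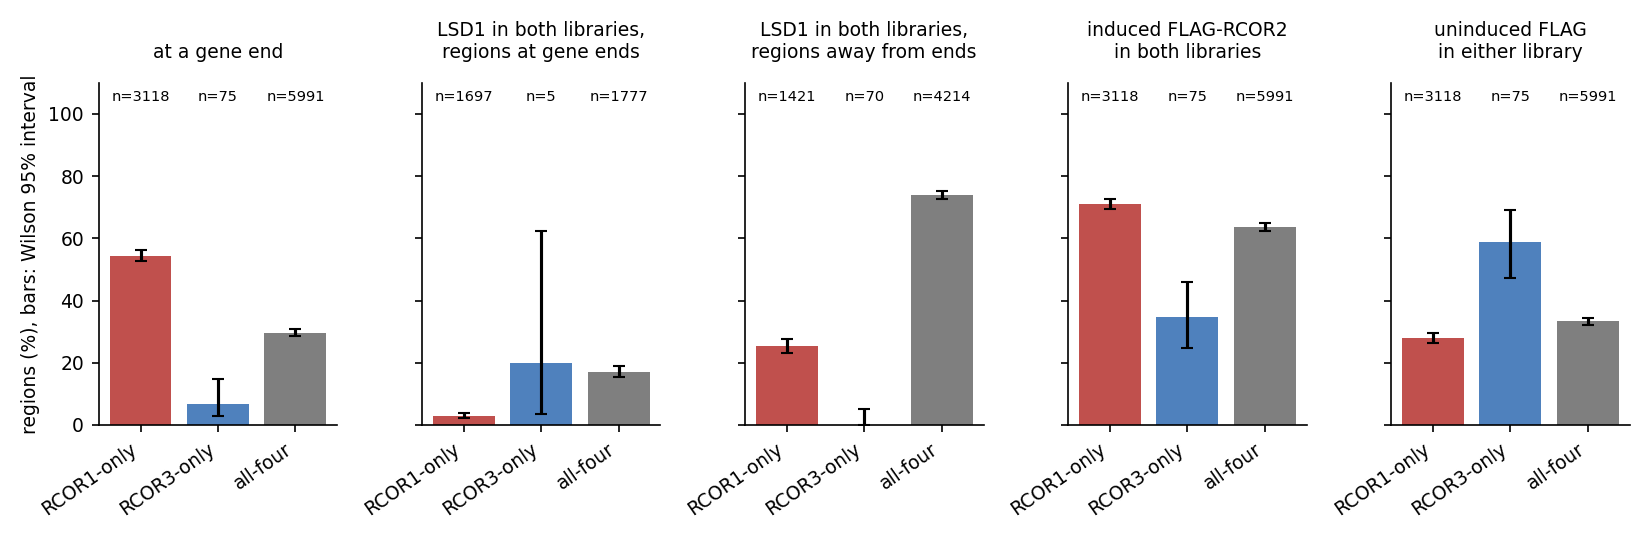
Share of regions in percent (vertical axis) at gene ends, with LSD1 peaks of both libraries at and away from gene ends, with induced FLAG-RCOR2 peaks of both libraries, and with an uninduced FLAG peak, for each class. Error bars are Wilson 95% intervals. Away from gene ends 25.4% of RCOR1-only, 0 of 70 RCOR3-only and 74.0% of all-four regions held LSD1.

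LSD1, which did not enter the classes, was found in a larger share of all-four regions than of RCOR1-only regions. Peaks of both LSD1 libraries lay in 13.1% of RCOR1-only regions (12.01 to 14.4%), in 1 of the 75 RCOR3-only regions (1.33%, 0.236 to 7.17%) and in 57.1% of all-four regions (55.9 to 58.4%). Of LSD1 peaks, fewer overlapped any other library than RCOR1 replicate 1, the longest of the 4 lists. Between 30.5% and 33.5% of the peaks of an LSD1 library overlapped a given RCOR3 library. RCOR1 replicate 2 was overlapped by 31.5% and 29.6% of the peaks of LSD1 replicates 1 and 2, and RCOR1 replicate 1 by 73.0% and 69.0%. The higher overlap was thus that of 1 list and not of both RCOR1 libraries. Regions of RCOR1 replicate 1 alone included 3360 with both LSD1 libraries (11.4% of them), about as many as the 3422 all-four regions. With both RCOR1 libraries, LSD1 lay in 19.6% of regions with RCOR3 replicate 2 only and 33.8% of those with RCOR3 replicate 1 only. With RCOR1 replicate 1 only, it was 22.3% and 38.9% in that order, and 48.5% with both RCOR3 libraries. With RCOR1 replicate 2 only, it was 4.17%, 0 of 16 and 5 of 139. The LSD1 share thus also moved with the library called, and a part of RCOR3 itself was not tested. LSD1 replicate 1 alone gave 19.98%, 1.33% and 63.3%, and LSD1 replicate 2 alone 16.3%, 2.67% and 59.7%, in the same order of classes. The difference of RCOR1-only from all-four was therefore −43.4 points with either single library and −44.0 points with both. The order held in both positions: at gene ends 2.89% of 1697 RCOR1-only and 16.99% of 1777 all-four regions held LSD1, and away from gene ends 25.4% of 1421 and 74.0% of 4214 did. Among regions without an uninduced FLAG peak it was 17.5% of RCOR1-only and 71.9% of all-four regions. All-four regions were longer, with a median of 911 bp against 485.5 bp for RCOR1-only and 197 bp for RCOR3-only, and longer regions meet more peaks. With every peak set to 500 bp around its summit the difference was −43.1 points. It kept its sign without any single RCOR1 or RCOR3 library, from −25.3 points without RCOR3 replicate 1 to −47.4 points without RCOR1 replicate 1.

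RCOR1-only regions had lower RCOR1 ranks than all-four regions, so the classes were also compared at like RCOR1 rank. The 13485 regions with both RCOR1 libraries were split into 4 groups of nearly equal size by the mean percentile rank of their −log10 q-value, a split added after the data were seen. From the weakest to the strongest group, RCOR1-only regions made up 50.5%, 26.1%, 13.6% and 2.26%, and all-four regions 13.6%, 32.1%, 49.5% and 82.5%. LSD1 was found in 11.9%, 15.4%, 13.7% and 11.8% of RCOR1-only regions in these groups and in 36.1%, 43.4%, 48.6% and 71.1% of all-four regions. The gene-end share was 52.0%, 55.2%, 60.1% and 65.8% for RCOR1-only and 38.9%, 36.6%, 34.8% and 22.4% for all-four regions, so the classes moved apart as RCOR1 rank grew. The ranks were only roughly matched: in the weakest group the median fold of RCOR1 replicate 1 was 5.03 in RCOR1-only and 6.56 in all-four regions, and in the strongest 8.39 and 12.4. The strongest group held 76 RCOR1-only regions.

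**Figure D3:**
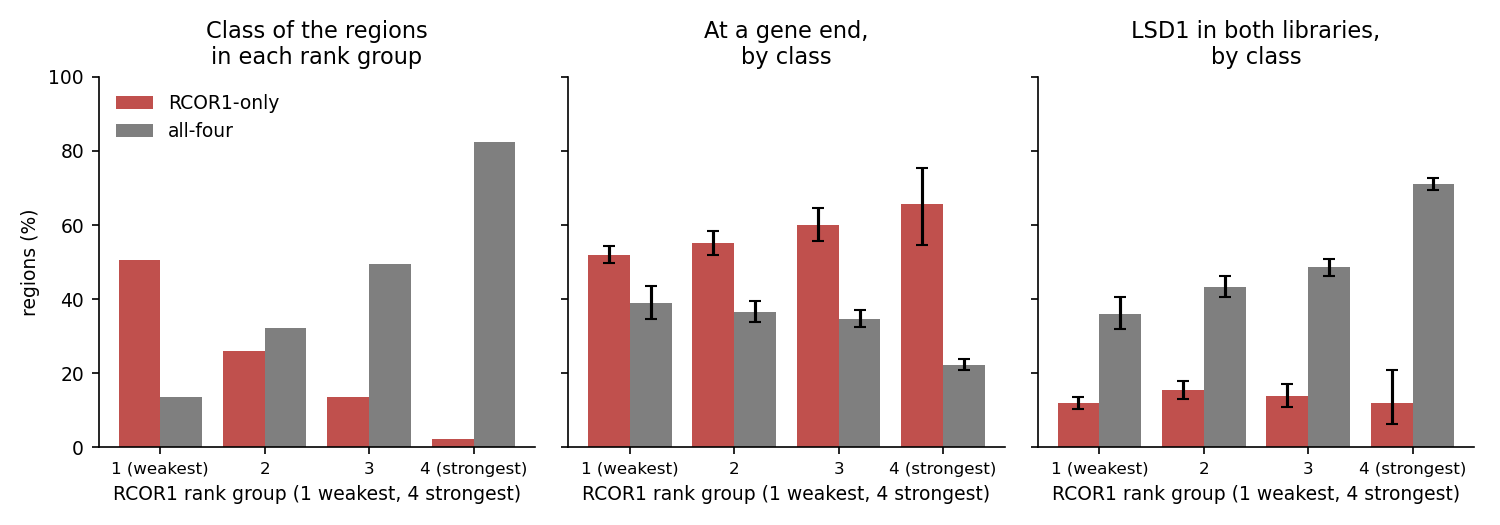
Regions with both RCOR1 libraries in 4 groups of RCOR1 rank (horizontal axis, weakest to strongest), with the percent in each class (left), at a gene end (middle) and with LSD1 peaks of both libraries (right). LSD1 stayed between 11.8% and 15.4% in RCOR1-only regions and was 36.1% to 71.1% in all-four regions. Error bars are Wilson 95% intervals.

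Tagged RCOR2 was called in most RCOR1-only regions. Peaks of both induced FLAG-RCOR2 libraries lay in 71.1% of RCOR1-only (69.5 to 72.6%), 34.7% of RCOR3-only (24.9 to 45.9%) and 63.7% of all-four regions (62.5 to 64.9%). At gene ends the share was 91.8% of RCOR1-only and 94.2% of all-four regions, and away from them 46.4% and 50.8%, so within either position the order of these 2 classes was turned. Among regions without an uninduced FLAG peak it was 86.6% and 85.2% at gene ends and 38.9% and 40.2% away from them, so the order at gene ends was not stable. In all 4 RCOR1 rank groups the RCOR1-only share was the higher, by 6.82 to 19.5 points. Uninduced FLAG was counted in a like way: a peak of either uninduced library lay in 27.9% of RCOR1-only, 58.7% of RCOR3-only (44 of 75) and 33.3% of all-four regions. Of the 31 RCOR3-only regions without an uninduced peak, 3 held both induced libraries (9.68%) and 1 held LSD1. Uninduced FLAG peaks moved with the RCOR3-only class, and their part in it was not tested. The difference of RCOR1-only from RCOR3-only in uninduced peaks was −30.8 points with all peaks but 3.78 points with equal numbers of top peaks, where 40.1% of RCOR1-only, 36.3% of RCOR3-only and 32.0% of all-four regions held one.

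With equal numbers of top peaks, RCOR3-only regions no longer stood apart from RCOR1-only regions in LSD1. LSD1 lay in 17.8% of RCOR1-only, 18.4% of RCOR3-only and 68.4% of all-four regions of that setting. The shares at gene ends were 58.8%, 23.1% and 23.1% in the same order. Of its 212 RCOR3-only regions, 53 overlapped an RCOR3-only region of the full lists and 43 an all-four region, since cutting the RCOR1 lists removes weaker RCOR1 peaks. Of its 1020 RCOR1-only regions, 670 overlapped an RCOR1-only region of the full lists. The full lists held 3118 RCOR1-only but 75 RCOR3-only regions to overlap, so these counts do not compare the stability of the classes.

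Fold enrichment, column 7 of the authors' lists, is the authors' own ratio per peak and was taken at the highest peak in a region. In RCOR1-only regions the median fold was 5.74 in RCOR1 replicate 1 and 5.11 in replicate 2, with highest values of 25.4 and 14.5. RCOR3-only regions had medians of 3.88 and 5.97 in RCOR3 replicates 1 and 2, with highest values of 7.75 and 12.9. All-four regions had medians of 9.94 and 6.30 in the RCOR1 libraries and of 5.49 and 6.49 in the RCOR3 libraries. The log2 of these medians averaged 2.98 ± 0.47 for RCOR1 and 2.58 ± 0.17 for RCOR3 (SD, n = 2 each). The difference was 0.41 (exact two-sided permutation p = 0.667). The smallest p that 2 against 2 libraries can give is 0.333, so this test could not make a call. RCOR1 replicate 2 lay between the RCOR3 libraries, so the proteins overlapped. These medians describe regions chosen for holding peaks, and a fold over background depends on antibody and library as well as on occupancy.

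**Figure D4:**
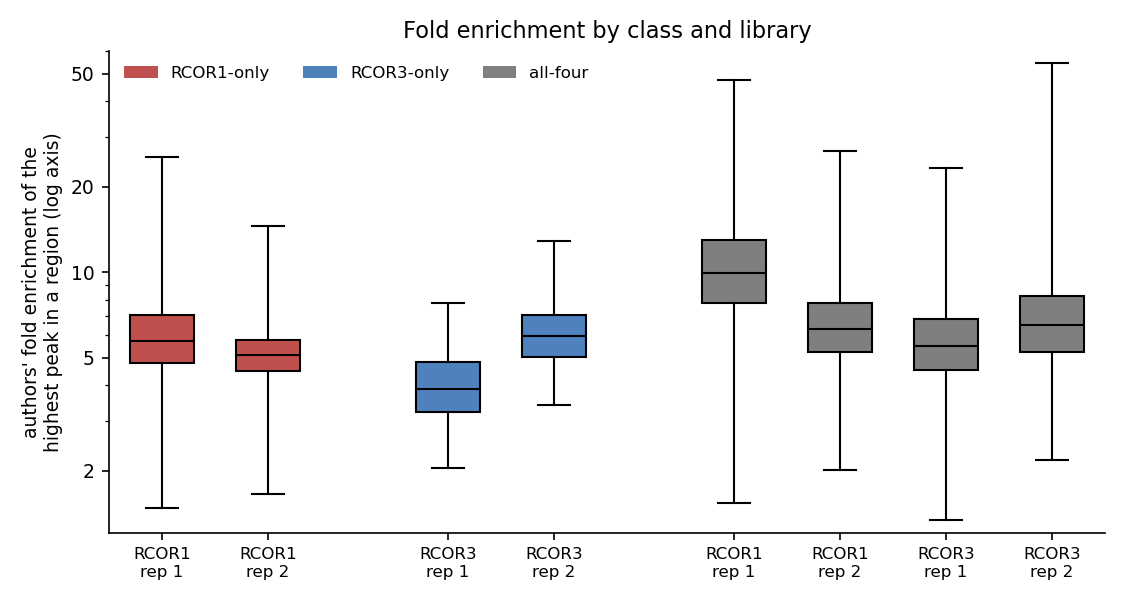
Authors' fold enrichment (vertical log axis) of the highest peak in each region, by class and library. Boxes span the quartiles with the median as a line and whiskers reach the lowest and highest region. The RCOR1 replicate 1 median was 5.74 in RCOR1-only and 9.94 in all-four regions.

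In all-four regions, which were chosen for overlapping peaks, summits lay about as far apart between the proteins as between libraries of 1 protein. The distance between the highest summits of 2 libraries had a median of 58 to 76 bp over all 6 pairs, 63 bp between the RCOR1 libraries, 75 bp between the RCOR3 libraries and 58, 67, 70 and 76 bp between the proteins. Between 59.6% and 70.5% of regions had summits within 100 bp. Fold enrichment across the 5991 regions ran most closely together between RCOR1 replicate 1 and RCOR3 replicate 1 (Spearman rho 0.70), against 0.50 between the RCOR1 and 0.42 between the RCOR3 libraries. These correlations are across regions, which share chromatin and mappability, and are descriptions.

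To look for a balance between the proteins within all-four regions, fold enrichment was ranked within each library. Both RCOR1 ranks lay above both RCOR3 ranks in 961 regions (16.0% of 5991), and both RCOR3 ranks above both RCOR1 ranks in 864 (14.4%). Ranking within each library gives all 4 the same mean rank, so the balance of these counts follows from the ranking and says nothing of the proteins' levels. LSD1 was found in 56.8% of the regions of higher RCOR1 rank and 58.2% of those of higher RCOR3 rank, and the intervals overlapped (53.7 to 59.9% and 54.9 to 61.5%). Gene ends took 36.4% of regions of higher RCOR1 rank and 25.2% of those of higher RCOR3 rank, a difference of 11.2 points (6.96 to 15.3, counting error only). Without uninduced FLAG peaks these shares were 21.7% and 13.5%. Without RCOR1 replicate 2, where RCOR1 rank is that of replicate 1 only, the gene-end difference was −1.55 points. Among the 10 regions with the widest gap towards RCOR1, 6 lay at gene ends. BRPF1, a scaffold of a histone acetyltransferase complex, had folds of 20.5 and 11.03 in the RCOR1 libraries and of 3.16 and 6.29 in the RCOR3 libraries. VPS37B, a subunit of the ESCRT-I sorting complex, had 12.1 and 7.35 for RCOR1 and 3.88 and 4.48 for RCOR3. Among the 10 with the widest gap towards RCOR3, 1 lay at a gene end, that of PRAME, a cancer-testis antigen, with 6.04 and 4.20 for RCOR1 and 6.14 and 6.72 for RCOR3. A region 16.4 kb from the nearest end of RET, a receptor tyrosine kinase of sympathetic development (chr10:43093474-43094673), had 8.40 and 4.85 for RCOR1 and 8.72 and 9.70 for RCOR3. These regions were chosen by their rank gaps, so the folds are a description.

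The highest ranked RCOR1-only regions at gene ends had RCOR1 folds of up to 25.4 in replicate 1 and 12.6 in replicate 2. SMARCE1 (chr17:40647243-40648880) had folds of 25.4 and 12.6 in RCOR1 replicates 1 and 2, and ATG13 (chr11:46617053-46617989) had 19.5 and 11.6. SFSWAP, a splicing regulator, had 16.6 and 10.1, ARL1, a GTPase of the Golgi, 17.4 and 9.45, and MDH1, the cytosolic malate dehydrogenase, 9.73 and 8.93. NDUFS4, a subunit of respiratory complex I, had 9.39 and 8.40. Replicate 1 was the higher library in each of these 6 regions, and neither RCOR3 library had a peak. Of the 10 regions taken by rank at gene ends, 1 held LSD1 in both libraries, 8 held it in neither, and all 10 held induced FLAG-RCOR2 in both, while 5 held an uninduced FLAG peak, SFSWAP among them. Of all 1697 RCOR1-only regions there, 2.89% held LSD1 in both libraries, 91.8% held induced FLAG-RCOR2 in both and 39.7% an uninduced FLAG peak. Away from gene ends, the first was 23.3 kb from ANXA2R with folds of 22.1 and 14.5. The next was 17.6 kb from CEBPB, a leucine-zipper transcription factor (chr20:50171398-50172987), with 11.4 and 8.40. A region 40.96 kb from MAP1B, a neuronal microtubule protein, with 8.61 and 7.75, was the only 1 of these 10 with LSD1 in both libraries.

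RCOR3-only regions were few and mostly far from genes, with peaks near or above the middle of their own lists (median percentile of the −log10 q-value 47.8 and 65.2 in RCOR3 replicates 1 and 2). The 5 at gene ends were GOLGA6A with folds of 4.36 and 7.40 in RCOR3 replicates 1 and 2, AGPAT2, an enzyme of phosphatidic acid synthesis, with 4.84 and 5.97, and MXRA8, a cell surface protein, with 3.16 and 5.03. PHLDB3 had 4.65 and 3.77, and NMNAT3, an enzyme of NAD synthesis, had 3.79 and 3.46. NMNAT3 was the single region of the class with LSD1 in both libraries. Away from gene ends the highest ranked lay 34.2 kb from GASK1B with 7.27 and 12.9 and 3.76 kb from CLDN16, a tight junction protein, with 6.89 and 11.2. Both lacked LSD1, induced FLAG-RCOR2 and uninduced FLAG peaks. None of the 10 highest ranked regions away from gene ends held LSD1 in either library, and 5 of them held an uninduced FLAG peak. The third (chr10:40556255-40556379), 2018 kb from the nearest gene end, held both uninduced libraries. Others of the 10 lay 1267 kb (chr4:50567047-50567310) and 1538 kb (chr12:36778028-36778671) from one. Whether reads can be assigned uniquely in such stretches was not tested.

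The 10 strongest all-four regions at gene ends included DBH and CYB561 of the noradrenergic programme, beside genes such as DNAJB8, RMDN3, TBX4 and VAPB. Of these 10 regions, 7 held an uninduced FLAG peak, DBH and CYB561 among them. DBH (chr9:133633635-133638006) had folds of 14.7 and 13.6 in the RCOR1 libraries and of 12.7 and 13.8 in the RCOR3 libraries, and it also held LSD1, induced FLAG-RCOR2 and uninduced FLAG peaks of both libraries. HES1 (chr3:194135540-194138260) had 26.4 and 13.1 for RCOR1 and 12.1 and 14.2 for RCOR3, with LSD1 in both libraries and no uninduced peak. CYB561, the cytochrome that regenerates ascorbate in noradrenaline granules, had 16.2 and 11.5 for RCOR1 and 11.1 and 14.0 for RCOR3. In each of these 3 genes RCOR1 replicate 1 was the highest library, and RCOR1 replicate 2 lay within the range of the RCOR3 values. Of the 10 regions away from gene ends with the highest ranks, 9 held an uninduced FLAG peak. Among them were chr5:9952-11857, with 35.1 and 21.8 for RCOR1 and 15.4 and 54.7 for RCOR3, and chr10:9945-10477, with 17.6 and 15.8 for RCOR1 and 7.89 and 35.9 for RCOR3. Both lie at the start of their chromosome and held peaks of all LSD1 and FLAG libraries too. Whether reads can be assigned uniquely there was not tested. Among regions without uninduced peaks, the one nearest PDE3A, a cyclic nucleotide phosphodiesterase (chr12:19969731-19970728), had 47.3 and 26.8 for RCOR1 and 22.6 and 24.6 for RCOR3. All 10 of that group held LSD1 in both libraries.

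**Figure D5:**
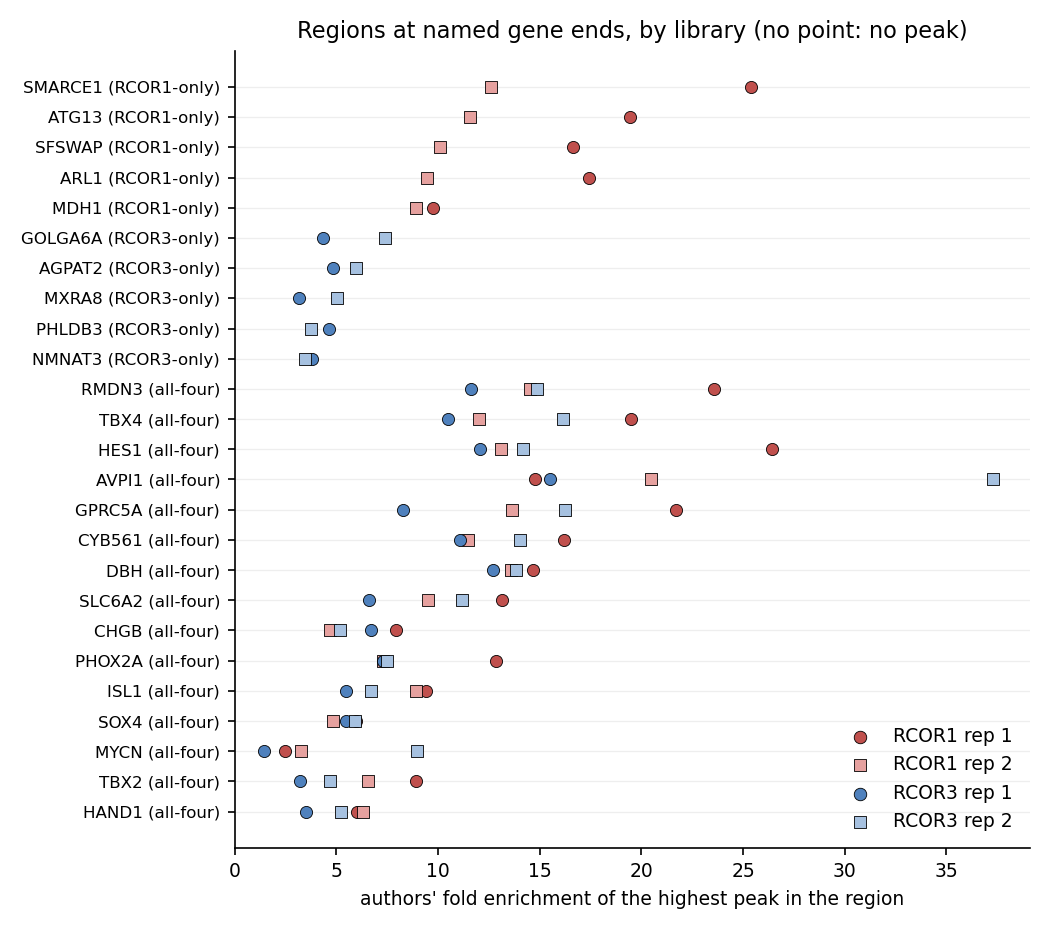
Authors' fold enrichment (horizontal axis) in each library for high-ranked regions at gene ends (all-four also without regions holding uninduced FLAG peaks) and all-four members of the adrenergic and noradrenergic lists that the text names, RCOR1-only above RCOR3-only above all-four. Circles are replicate 1 and squares replicate 2. RCOR1 replicate 1 was the highest of the 4 libraries at HES1 (26.4), DBH (14.7) and PHOX2A (12.8).

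By gene, 1965 of the 19970 protein-coding genes had an RCOR1-only region at an end (9.84%), 5 had an RCOR3-only region (0.0250%) and 2127 had an all-four region (10.7%), with 136 genes in both of the large classes. No list gene had an RCOR3-only region, which 5 genes in all leave little room for. Of 22 adrenergic core regulators, 3 had an RCOR1-only region (13.6%) and 7 an all-four region (31.8%). PHOX2A, a homeobox factor of sympathetic neurons, had folds of 12.8 and 7.27 for RCOR1 and 7.27 and 7.47 for RCOR3, and ISL1, a LIM homeobox factor, had 9.39 and 8.93 for RCOR1 and 5.49 and 6.72 for RCOR3. SOX4, MYCN, TBX2 and HAND1 also had an all-four region. At MYCN the region ran over 16964 bp of the amplified locus, with folds of 2.48 and 3.27 for RCOR1 and of 1.44 and 8.96 for RCOR3. MEIS1, a TALE homeobox factor, had an RCOR1-only region with 5.59 and 5.25, DACH1 one with 4.70 and 4.73, and TBX2 a second one beside its all-four region with 6.34 and 6.06. HAND2 and GATA2 had peaks of 3 libraries at their ends and GATA3 of 1, without a region of any class.

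Of 17 genes of the LSD1-CoREST complex and its partners, 4 had an RCOR1-only region (23.5%) and 1 an all-four region (5.88%). PHF21A, which binds unmodified histone H3 lysine 4 in the complex, had folds of 6.56 and 7.88 in the RCOR1 libraries, HMG20B, a DNA-binding subunit, 9.04 and 5.24, and CTBP2, a corepressor, 6.37 and 6.30. RUNX1T1, a corepressor of the ETO family, had 7.04 and 7.88. The all-four region lay at the RCOR3 gene itself, where RCOR1 had 12.9 and 6.204 and RCOR3 had 6.14 and 7.32, with both uninduced FLAG libraries called there too. With equal numbers of top peaks the counts were also 4 and 1, and without regions holding an uninduced FLAG peak they were 3 and 0. Among 15 noradrenergic genes, 3 had an RCOR1-only region and 5 an all-four region (33.3%), among them CYB561, DBH, SLC6A2 and CHGB. SLC6A2, the noradrenaline transporter, had 13.1 and 9.51 for RCOR1 and 6.58 and 11.2 for RCOR3. CHGB, a granin of secretory vesicles, had 7.93 and 4.68 for RCOR1 and 6.70 and 5.20 for RCOR3. All 5 also held an uninduced FLAG peak, and without such regions the all-four count of this list was 0. Uninduced peaks thus moved with this list, and their part was not tested.

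Several lists of widely expressed genes had a larger share with an all-four region than the 10.7% of all genes. Replication-dependent histone genes had RCOR1-only regions at 11 of 69 and all-four regions at 26 of 69 (37.7%), splicing factors at 5 and 12 of 30, p53 targets at 3 and 8 of 20, MYC targets at 6 and 8 of 30 and cell cycle genes at 5 and 8 of 30. Histone genes lie in clusters, so neighbours can share a region, as H2AC19 and H3C15 did with 8.11 and 9.32 for RCOR1 and 6.64 and 10.0 for RCOR3. SESN1, a stress-induced p53 target, had 9.06 and 6.30 for RCOR1 and 7.43 and 6.11 for RCOR3. Neuronal REST targets had RCOR1-only regions at 6 of 30 and all-four regions at 3. Among the 6 were SNAP25, a synaptic vesicle fusion protein, with 6.04 and 4.73, STMN2, a microtubule regulator, with 9.06 and 6.30, and ELAVL3, a neuronal RNA-binding protein, with 8.39 and 6.77. Oxidative phosphorylation genes had 7 of 31 in either class (22.6%), among them COX4I1 with 7.72 and 7.35 in the RCOR1 libraries. Cytosolic ribosomal protein genes and their paralogues were near the background, with 9 and 11 of 86. Liver genes had 1 and 1 of 25, keratinocyte genes 0 and 1 of 23, HOX genes 3 and 3 of 39 and SNAG-domain and other recruiting factors 1 and 1 of 12. Mesenchymal-state genes had 3 and 2 of 24, Schwann and glial markers 2 and 0 of 10, immediate early genes 2 and 3 of 20, cholesterol synthesis genes 3 and 3 of 20, and antigen presentation and interferon genes 2 and 2 of 22. Leaving out regions with an uninduced FLAG peak left 5.87% of all genes with an RCOR1-only and 3.86% with an all-four region. The all-four counts were then 10 for histones, 2 for splicing factors, 3 for p53 targets, 1 for MYC targets, 3 for cell cycle genes and 4 for adrenergic core regulators.

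Promoters of the large classes were much alike in sequence and differed together from the average promoter. A summit of every library of the class lay in 741 RCOR1-only, 2 RCOR3-only and 559 all-four promoter windows, of 22011 windows of protein-coding genes. The median number of CpG dinucleotides per window was 27 in RCOR1-only and 27 in all-four windows, against 21 in all windows. The ETS motif (CCGGAAG) was found in 25.5% of RCOR1-only, 29.3% of all-four and 12.7% of all windows. In the same order, the GC box (GGGCGG) was found in 72.1%, 76.4% and 56.3%, and the NRF1 core (GCATGCG) in 10.1%, 9.66% and 4.60%. All 3 were more frequent in both classes than in all windows. The core promoter motif TATAAA was found in 4.18% of RCOR1-only, 3.58% of all-four and 9.49% of all windows, and the homeobox motif (TAATTA) in 0.810%, 0.894% and 3.40%. The motif of GATA factors (AGATAA) was found in 4.18%, 5.55% and 7.90%, AP-1 (TGACTCA) in 2.56%, 1.97% and 4.02%, and the E-box CATCTG in 8.50%, 7.69% and 12.2%. These 5 were less frequent in both classes than in all windows. The E-box CACGTG, the form bound by MYC family proteins, was found in 11.3% of RCOR1-only, 14.8% of all-four and 8.32% of all windows, and CCAAT in 39.7%, 35.1% and 34.7%. The left and right parts of the REST site were found in 8.91%, 7.87% and 7.82% (CAGCACC) and in 5.67%, 7.16% and 4.97% (GACAGCG). The GFI1 core (AATCAC) was found in 7.29%, 8.23% and 8.89%, the cyclic AMP response element in 3.91%, 5.01% and 2.25%, and the CGCG element in 2.02%, 3.40% and 1.37%. No motif searched contains another, both strands were read, and a match is a run of letters, not a measured binding site. Regions away from gene starts were not searched.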

How the data were processed

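Peaks had been called by the authors in each library separately, with BWA 0.7.17, MACS2 and deepTools named in the submitters' processing notes and GRCh38 as the build. The control library, the treatment of duplicates and later filters are not stated in the labels or notes used. In the deposited lists, column 7 is the authors' fold enrichment, a ratio, and column 9 the authors' −log10 q-value. The files give no read counts, so depth is unknown. Peak names in the lists of RCOR1 replicate 2 and RCOR3 replicate 2 carry another replicate's name than the labels, which were followed. The labels do not say that replicates were separate cultures, so the spread may be technical.

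Peaks on chromosomes 1 to 22 and X were merged where they shared at least 1 bp, with Python 3.11.15, pandas 2.3.3, numpy 2.4.6 and scipy 1.17.1, and drawn with matplotlib 3.10.9. Each region was set against LSD1 and FLAG peaks by an overlap of at least 1 bp, and against 19970 protein-coding RefSeq genes. Shares have Wilson and differences Newcombe 95% intervals. Libraries were compared by exact permutation. Class assignment was tested on simulated data. The named regions were the 10 highest ranked of a class at and away from gene ends, by their lowest within-library percentile of the −log10 q-value, the 10 widest rank gaps in either direction, and members of 20 gene lists with a region at an end (in 17 lists up to 6 a class), of which 375 of 377 symbols were found. Examples from these were picked after their values were seen. Some list members are counted but not reported here. The classes and lists were chosen with earlier results of these data known. The alternatives tried were equal numbers of top peaks, fixed 500 bp peaks, 50% reciprocal overlap, peaks with a −log10 q-value above the library median, other gene-end definitions, leaving out regions with uninduced FLAG peaks or near MYCN, position and rank strata, the replicate block and each library left out.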

Additional observations from a re-analysis of the deposited data

How the results depend on the processing

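The direction of the LSD1 difference of RCOR1-only from all-four regions (−44.0 points) was the same under all alternatives run, while LSD1, uninduced FLAG and RCOR2 contrasts that involve the 75 RCOR3-only regions, or rest on position, were not stable. The causes of the shifts below were not tested, beyond those that follow from fewer peaks or regions. The contrasts against all-four regions, the rank contrast, the RCOR1 rank groups and the gene counts without uninduced peaks were chosen after seeing the data.

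With equal numbers of top peaks the classes held 1020 RCOR1-only, 212 RCOR3-only and 3556 all-four regions, with 50% reciprocal overlap 1091, 994 and 1600, and with peaks above the median −log10 q-value 1838, 49 and 2564. RCOR3-only regions numbered 131 with peaks of 500 bp and 31 without uninduced FLAG peaks. Genes with a region numbered 708, 58 and 986 with equal numbers, 1173 RCOR1-only and 771 all-four without uninduced peaks, and 32 RCOR3-only and 3376 all-four by the nearest gene end within 100 kb. Without single libraries the regions numbered 5128 to 32813, 214 to 12888 and 5912 to 8353.

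RCOR1-only minus RCOR3-only, in points, was as follows. LSD1 was −0.553 with equal numbers, 0.241 with 500 bp and −23.4 with reciprocal overlap. It was −17.1 at gene ends, where it rests on 1 of 5 RCOR3-only regions, and 25.4 away from them. Without single libraries LSD1 was −33.9 (without RCOR1 replicate 1) to 20.5. RCOR2 was 13.5 away from gene ends and 1.96 (without RCOR1 replicate 2) to 54.98 without single libraries. Uninduced FLAG was 3.78 with equal numbers, 18.4 with reciprocal overlap, −36.1 to 15.1 without single libraries, and above 0 without RCOR1 replicate 1 (3.05), RCOR3 replicate 1 (7.39) or RCOR3 replicate 2 (15.1). The gene-end difference was 35.7 with equal numbers, 16.9 with reciprocal overlap, 32.6 without uninduced peaks and 27.4 to 45.6 without single libraries.

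RCOR1-only minus all-four, the gene-end difference was 35.7 with equal numbers, 33.8 with reciprocal overlap, 40.8 above the median, 29.3 without uninduced peaks, 13.1, 18.6 and 43.4 in the weakest, next and strongest RCOR1 rank group, 19.1 with a 500 bp window, 21.0 at starts, and 1.98 to 27.6 without single libraries. LSD1 was −50.6, −50.8 and −55.96 in the first 3 of these settings, −43.1 with 500 bp, −54.4 without uninduced peaks, −43.8 without the MYCN locus, −14.1 at and −48.6 away from gene ends, −24.2, −28.0, −34.8 and −59.3 in the rank groups, and −47.4 to −25.3 without single libraries. RCOR2 was 14.1, 16.5 and 14.9 in those settings, 3.35 with 500 bp, 13.2 without uninduced peaks, −2.45 at and −4.45 away from gene ends, 14.2, 17.8 and 19.5 in the upper rank groups, and −29.2 (without RCOR1 replicate 2) to 8.10 without single libraries.

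The gene-end difference between regions of higher RCOR1 and higher RCOR3 rank was 6.83 points above the median and −1.55 (without RCOR1 replicate 2) to 15.0 without single libraries. Per library it was 11.5 points with the replicate block (exact permutation p = 0.5), which only shares numbers, and 5.98 to 17.1 without single libraries. The log2 fold difference was 0.06 to 0.73 without single libraries.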
